A study of Homo sapiens with 12 samples.

Results

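The mitochondrial ribosomal protein genes were taken as every gene on the array whose symbol is MRPL or MRPS followed by its number, with or without a letter A to C. This gave 76 genes read by 110 probes, out of 20046 named genes and 47230 probes in all. Of these genes, 48 carried an MRPL symbol and 28 an MRPS symbol. Placed by the structure of the human mitoribosome, 50 belong to the large subunit and 26 to the small one, because the proteins of MRPS30 and MRPS18A sit in the large subunit. Within the large subunit, 29 proteins take the place of a bacterial counterpart, here called bacterial homologs, and 21 hold places specific to mitochondria. In the small subunit these numbers were 16 and 10. MRPL27 was not analysed here. All 76 genes had a tested probe above background on all 12 arrays.

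Mitoribosomes make the few proteins that mitochondrial DNA encodes, all of them core parts of the respiratory chain and ATP synthase. Their RNAs come from mitochondrial DNA, while every one of their proteins is encoded in the nucleus, made in the cytosol and imported. Doxycycline belongs to the tetracyclines, which block bacterial ribosomes and also inhibit mitochondrial translation.

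The study used cells labelled C4-2B/Rx2dox or C4-2B/181, from C4-2B, a castration-resistant line derived from LNCaP prostate cancer cells. In these cells doxycycline (dox) switches on RUNX2, a transcription factor of bone formation. The 4 groups, of 3 arrays each, were DHT_DOX (dihydrotestosterone and dox), Dox (dox), DHT (the androgen dihydrotestosterone alone) and Et (ethanol vehicle). All groups carried the same inducible construct, had been grown with 10% serum and had then spent 48 h in 5% charcoal-stripped serum without phenol red. The labelled doses were 10 mM of DHT and, for 48 h, 250 µg/ml of dox, units that could not be checked. No cells treated with dox but lacking the construct were analysed here, so that an effect of dox itself and one of the gene it switches on cannot be told apart. Whether the line is 1 clone is not given in the sources used here.

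Over the tested probes of the 12405 genes tested, arrays within a group correlated at 0.9943 to 0.9956 and arrays from different groups at 0.9756 to 0.9932. The brighter RUNX2 probe read 331.1, 258.6 and 321.9 in DHT_DOX, 293.1, 271.7 and 244.6 in Dox, 313.0, 273.9 and 270.9 in DHT, and 210.3, 206.8 and 225.8 in Et. Which part of the transcript this probe reads is not known here, and it checks nothing of an induced copy. Lineage genes were mixed against the labelled line. Of 7 prostate luminal markers, KLK3, the prostate-specific antigen gene, was above the background limit on 1 of 12 arrays, KLK2 and FOLH1 on 0, and HOXB13 on 1, while ACP3 was above it on 9 and SLC45A3 and TMPRSS2 on 12. Of the immune markers, PTPRC and CD3E were above it on 0 arrays and CD14 on 11, at 142.4 to 170.6. The estrogen receptor gene ESR1 read 2157 to 4711 and the luminal factor gene GATA3 2472 to 4562. Of the other 5 breast luminal markers, TFF1, XBP1, AGR2 and KRT19 were above the limit on 12 arrays and PGR on 6, all of them arrays with dox. The cells are therefore called by their labels only.

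RefSeq promoters of GRCh38.p14, from 250 bases before to 50 bases after a gene's first listed start, were found for 68 of the 76 genes. They were searched on both strands for short motifs that named factors are known to bind. GCATGCG stood for NRF1, a regulator of nuclear genes for mitochondria. CCGGAAG stood for the ETS family, which includes GABP. AAGATGG stood for the zinc finger factor YY1. CACGTG is the E-box that MYC and its relatives read. TGTGGT is the core that RUNX factors read. TATAAA is the TATA box of the basal machinery. MRPL12 (chr17:81703117-81703416, plus strand) and MRPS17 (chr7:55951627-55951926, plus strand) are the large and small subunit members that rose most with Dox against Et. MRPL52 (chr14:22829637-22829936, plus strand) and MRPL20 (chr1:1407244-1407543, minus strand) have tested probes called higher in neither dox comparison. Among such members they were picked for having the most NRF1, ETS and YY1 matches. The other MRPL20 probe above background was called higher in both dox comparisons. Because the pairs were picked by different rules, their numbers of matches are not a comparison of members that rose with others. Capitals mark matches.
MRPL12: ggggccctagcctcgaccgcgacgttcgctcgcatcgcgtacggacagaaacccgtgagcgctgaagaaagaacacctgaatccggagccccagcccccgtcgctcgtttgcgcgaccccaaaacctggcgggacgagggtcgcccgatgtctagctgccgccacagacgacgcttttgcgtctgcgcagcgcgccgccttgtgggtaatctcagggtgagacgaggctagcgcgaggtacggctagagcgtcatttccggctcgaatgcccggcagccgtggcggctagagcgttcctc
MRPS17: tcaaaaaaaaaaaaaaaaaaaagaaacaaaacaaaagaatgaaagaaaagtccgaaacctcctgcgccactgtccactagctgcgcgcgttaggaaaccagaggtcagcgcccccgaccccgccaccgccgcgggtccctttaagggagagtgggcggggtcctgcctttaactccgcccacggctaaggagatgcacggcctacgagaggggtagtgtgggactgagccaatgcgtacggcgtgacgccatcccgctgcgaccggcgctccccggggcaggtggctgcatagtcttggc
MRPL52: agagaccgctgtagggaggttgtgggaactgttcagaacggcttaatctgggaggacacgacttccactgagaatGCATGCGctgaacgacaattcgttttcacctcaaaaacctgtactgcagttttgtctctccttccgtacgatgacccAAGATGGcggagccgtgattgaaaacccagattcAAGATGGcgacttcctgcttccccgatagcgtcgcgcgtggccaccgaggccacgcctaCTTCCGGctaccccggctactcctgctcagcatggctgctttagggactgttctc
MRPL20: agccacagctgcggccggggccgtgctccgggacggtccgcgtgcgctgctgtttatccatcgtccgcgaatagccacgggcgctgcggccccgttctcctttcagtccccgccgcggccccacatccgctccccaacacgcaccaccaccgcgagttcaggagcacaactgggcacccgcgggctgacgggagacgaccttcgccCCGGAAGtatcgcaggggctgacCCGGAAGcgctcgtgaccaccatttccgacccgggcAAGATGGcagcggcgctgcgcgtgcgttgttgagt
The MRPL12 and MRPS17 windows held 0 matches. MRPL52 held 4, for NRF1, YY1, YY1 and ETS, counted 5′ to 3′. MRPL20 held 3, for ETS, ETS and YY1.

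ETS letters stood in 28 of 68 member promoters (41.2%), against 18.6% of the promoters of genes tested and 10.7% of all 27305 promoters. YY1 letters stood in 23 (33.8%), against 7.58% and 6.06%. NRF1 letters stood in 7 (10.3%), against 6.34% and 4.13%. Any of these 3 motifs was found in 44 member promoters (64.7%), against 28.9% of those of genes tested. E-box letters stood in 6 (8.82%, against 10.1% of genes tested), RUNX letters in 5 (7.35%, against 9.38%) and TATA letters in 2 (2.94%, against 6.16%). Members that rose in both dox comparisons held ETS letters in 2 of 17 promoters, YY1 letters in 5, NRF1 letters in 3, E-box letters in 2, RUNX letters in 3 and TATA letters in 0. For members that rose in either or both, the counts among 33 promoters were 10 for ETS, 12 for YY1 and 4 for NRF1. They were 3 for the E-box, 5 for RUNX and 0 for TATA letters. Members that rose in neither held ETS letters in 18 of 35 promoters, YY1 letters in 11, NRF1 letters in 3, E-box letters in 3, RUNX letters in 0 and TATA letters in 2. Any of the NRF1, ETS and YY1 motifs stood in 8 of the 17, 19 of the 33 and 25 of the 35 promoters. A match is a run of letters and says nothing of binding, and these counts were not tested.

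In Dox against Et, 27 of the 76 genes rose, 1 fell and 48 did not pass the test. The test was limma over 12405 genes with a Benjamini-Hochberg adjusted p under 0.05, and 15.7% of all genes tested were called higher and 16.3% lower. The median change of the members was 0.16 on the log2 scale of intensity, against -0.01 over all genes, and 61 members had a positive change. In either direction, 32.0% of all genes were called. In 31 members every Dox array lay above every Et array, and in 1 every Dox array lay below (21.0% and 21.8% of all genes). The changes were small, from -0.40 to 0.76, with a median standard error of 0.08. Cell division genes moved with them: all 10 of a proliferation list, among them AURKB at 0.71, CDC20 at 0.62, BIRC5 at 0.62 and CDK1 at 0.57, were higher, and their part in the result was not tested.

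In DHT_DOX against DHT, which shares no array with the first comparison, 30 members rose, 3 fell and 43 did not pass the test. Among all genes tested, 13.8% were called higher, 18.7% lower and 32.6% in either direction. The median change was 0.17, against -0.02 over all genes, and 64 members had a positive change. In 39 members all DHT_DOX arrays lay above all DHT arrays, and in 3 all lay below (19.4% and 24.5% of all genes). The same 10 proliferation genes were again all higher, with AURKB at 0.76, CDC20 at 0.65, BIRC5 at 0.57 and CDK1 at 0.34, and their part in the result was not tested. In bulk RNA, a shift in the mix of cells and a change within each cell cannot be told apart.

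**Figure D1:**
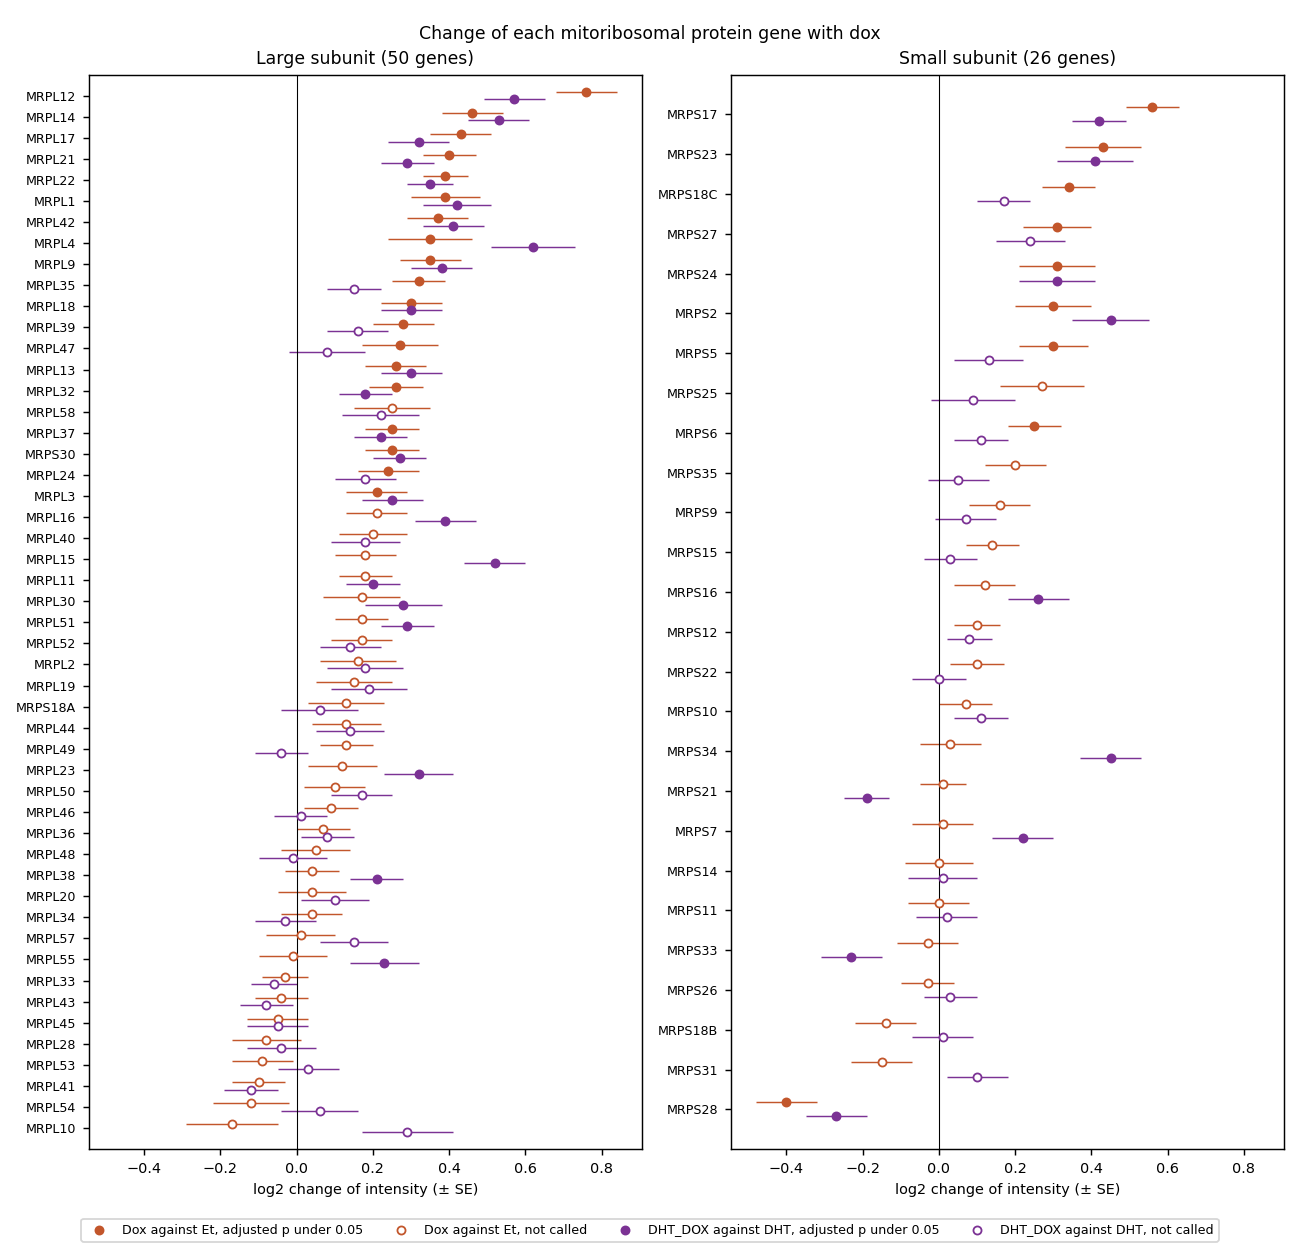
Log2 change of intensity (horizontal axis) with its standard error for each large subunit gene (left) and small subunit gene (right), for Dox against Et and DHT_DOX against DHT, from limma on 3 arrays a group. Filled points passed the adjusted p threshold of 0.05, and most of them lie between 0.2 and 0.6, to the right of 0.

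Large and small subunit genes were counted apart. Of the 50 large subunit genes, 19 rose and 0 fell in Dox against Et, and 23 rose and 0 fell in DHT_DOX against DHT, with median changes of 0.17 and 0.18. At an unadjusted p under 0.05, 0 large subunit genes were lower in either comparison, against 2571 and 2899 of the 12405 genes tested. Of the 26 small subunit genes, 8 rose and 1 fell in Dox against Et, and 7 rose and 3 fell in DHT_DOX against DHT, with median changes of 0.11 and 0.10. By symbol instead of structure, 18 of 48 MRPL genes and 9 of 28 MRPS genes rose in Dox against Et, and 22 and 8 in DHT_DOX against DHT. Every called fall in these comparisons was thus in the small subunit, where falls were still scarcer than among all genes. They made up 3.85% and 11.5% of its genes, against 16.3% and 18.7% of all genes. Called rises made up 38.0% and 46.0% of large subunit genes and 30.8% and 26.9% of small subunit genes. Among all genes, rises made up 15.7% and 13.8%. The difference between the subunits was not tested.

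Proteins with bacterial homologs held more of the called rises in the large subunit. There, 15 of 29 genes with a bacterial homolog rose in Dox against Et and 18 in DHT_DOX against DHT, with median changes of 0.21 and 0.28. Of the 21 large subunit genes specific to mitochondria, 4 and 5 rose, with medians of 0.13 and 0.14. In the small subunit, 6 and 5 of 16 genes with a bacterial homolog rose, and 2 and 2 of 10 specific ones. These differences were not tested either. By place, genes of the exit tunnel rim rose in 4 and 3 of 6 cases. Those of the stalk that recruits translation factors rose in 1 and 2 of 4, and those of the central protuberance in 1 and 3 of 7. Among all genes, called rises made up 15.7% and 13.8%. They made up 14.29% and 42.86% of central protuberance genes, and 19.05% and 23.81% of large subunit genes specific to mitochondria. In Dox against Et, these 2 classes were thus near the share of all genes. So were small subunit genes specific to mitochondria, of which 2 of 10 rose in each comparison. Differences between any of these classes and all genes were not tested.

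**Figure D2:**
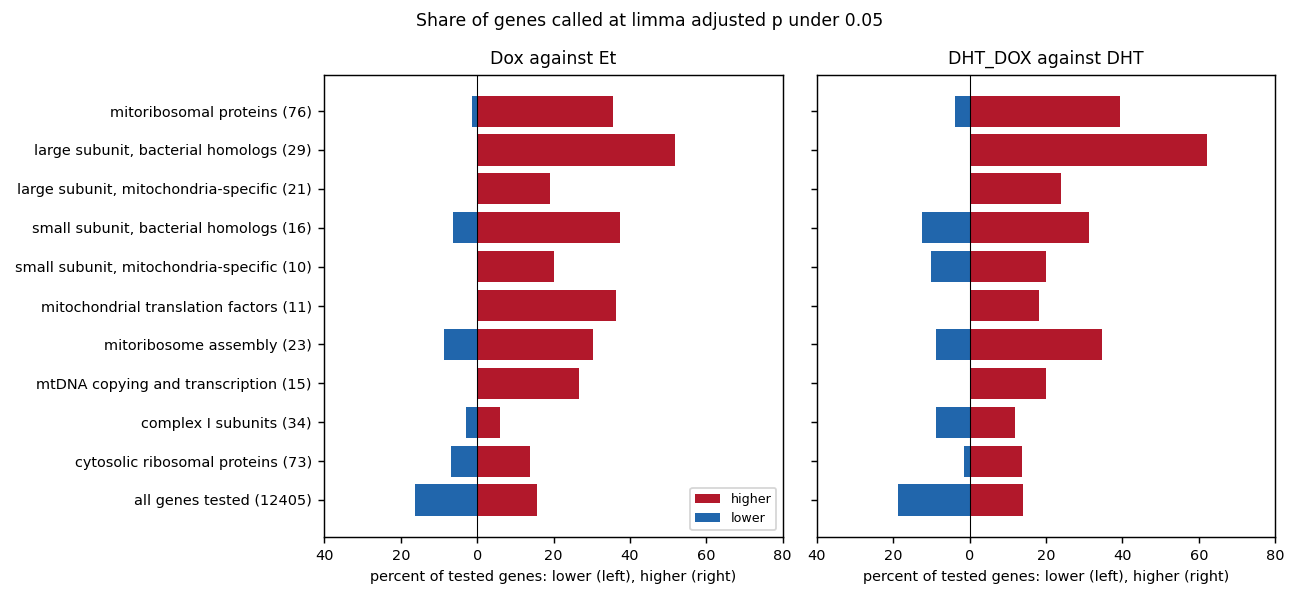
Percent of tested genes called higher (right of 0) or lower (left of 0) by limma in Dox against Et and in DHT_DOX against DHT, for each gene group with its number of genes. Large subunit genes with bacterial homologs reach 51.7% and 62.1% called higher, against 15.7% and 13.8% of all genes.

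MRPL12, whose protein forms the flexible stalk that contacts translation factors and is also reported to bind the mitochondrial RNA polymerase, showed the largest change of any member. Its intensity was 1155.3, 1390.6 and 1188.9 in Dox, against 735.9, 774.0 and 691.6 in Et. It was 1157.8, 1237.2 and 1182.8 in DHT_DOX, against 766.0, 788.2 and 865.5 in DHT. All arrays with dox lay above all arrays without it. It rose 1.69-fold in Dox against Et (log2 0.76 ± 0.08 SE, limma adjusted p = 2.72e-07) and 1.48-fold in DHT_DOX against DHT (0.57 ± 0.08, limma adjusted p = 1.34e-05). Among the other stalk genes, MRPL10, the anchor of MRPL12 on the ribosome, changed by -0.17 and 0.29, neither called. MRPL11 changed by 0.18 (not called) and 0.20 (limma adjusted p = 0.0339), and MRPL53 by -0.09 and 0.03, neither called. The MRPL11 call was lost without DHT replicate 1 or 2, without DHT_DOX replicate 1 or 2, and with the mean of its probes (0.08, limma adjusted p = 0.448). Another bright MRPL11 probe changed by -0.19 and -0.11, neither called.

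Exit tunnel genes were next. MRPL22, whose protein lines the tunnel, read 4253.3, 4054.8 and 4166.8 in Dox, against 3133.9, 3144.1 and 3253.8 in Et. In DHT_DOX it read 3820.7, 3742.2 and 4104.2, against 3232.2, 2996.5 and 2933.1 in DHT. Both pairs of groups stood apart, with changes of 0.39 and 0.35 (limma adjusted p = 5.95e-05 and 0.000191). MRPL17, at the tunnel rim, read 2675.3, 2747.4 and 2650.9 in Dox, against 1864.1, 2043.0 and 2108.3 in Et. It read 2486.9, 2684.0 and 3025.7 in DHT_DOX, against 2243.4, 2063.8 and 2243.4 in DHT. Again no arrays overlapped, and it rose by 0.43 and 0.32 (limma adjusted p = 0.000144 and 0.00225). MRPL45, which in mammals ties the tunnel exit to the inner membrane, changed by -0.05 and -0.05, neither called.

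MRPL4, another protein of the tunnel wall, had the largest rise in the presence of DHT. It read 836.2, 884.0 and 1036.0 in DHT_DOX, against 676.7, 535.8 and 576.2 in DHT. It read 943.4, 786.0 and 649.7 in Dox, against 611.5, 634.4 and 602.8 in Et. The Dox arrays were widely spread, but none reached down to the Et arrays. Its change was 0.62 ± 0.11 in DHT_DOX against DHT (1.54-fold, limma adjusted p = 0.000182) and 0.35 ± 0.11 in Dox against Et (limma adjusted p = 0.0221). The Dox against Et call was lost without Et replicate 3, Dox replicate 1 or Dox replicate 2 (limma adjusted p of 0.0517 to 0.171). Its second probe above background rose by 0.39 in DHT_DOX against DHT and by 0.47 in Dox against Et.

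**Figure D3:**
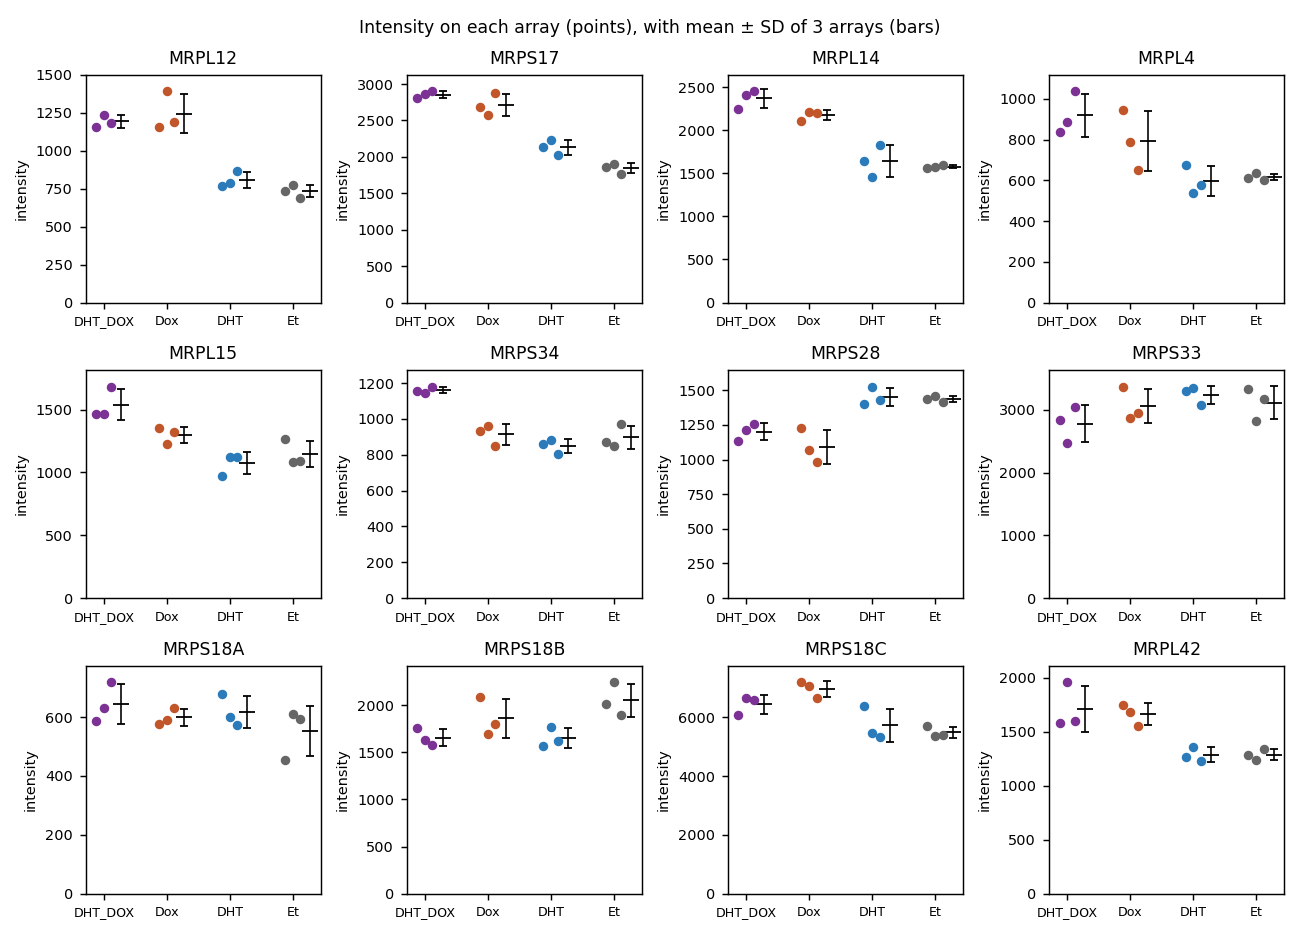
Intensity of 12 named members on each array (points), with the mean and SD of 3 arrays (bars), in DHT_DOX, Dox, DHT and Et. MRPL12 lies between 1155.3 and 1390.6 on the arrays with dox and between 691.6 and 865.5 on the others, while MRPS28 lies lower with dox.

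Among other proteins of the large subunit core, MRPL14 sits at the face towards the small subunit. It read 2106.0, 2217.2 and 2207.4 in Dox, against 1566.4, 1570.6 and 1595.4 in Et. It read 2251.6, 2407.1 and 2453.1 in DHT_DOX, against 1646.6, 1464.4 and 1833.3 in DHT. The groups did not overlap, and the changes were 0.46 and 0.53 (limma adjusted p = 5.59e-05 and 1.17e-05). MRPL1, of the stalk near the exit site for transfer RNA, read 1228.5, 1170.1 and 1089.6 in Dox, against 963.4, 891.8 and 809.1 in Et. In DHT_DOX it read 1229.9, 1090.3 and 1238.0, against 771.2, 962.2 and 927.2 in DHT. It rose by 0.39 and 0.42 (limma adjusted p = 0.00201 and 0.00096), with no overlap.

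MRPL15, a core protein with a bacterial counterpart, was called in DHT-treated cells. It read 1468.2, 1468.9 and 1681.2 in DHT_DOX, against 971.5, 1121.1 and 1124.8 in DHT. It read 1352.3, 1228.8 and 1322.3 in Dox, against 1269.0, 1087.3 and 1091.8 in Et. The first pair of groups stood apart and the second overlapped at 1 Et array. The changes were 0.52 ± 0.08 (limma adjusted p = 4.97e-05) and 0.18 ± 0.08 (limma adjusted p = 0.109). Their difference, 0.34 ± 0.12, did not pass the interaction test (limma adjusted p = 0.315).

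MRPL42, a mitochondria-specific protein once assigned to the small subunit, read 1748.0, 1683.5 and 1554.3 in Dox, against 1285.4, 1239.1 and 1337.8 in Et. In DHT_DOX it read 1578.4, 1954.9 and 1594.3, against 1265.9, 1360.4 and 1224.3 in DHT. It rose by 0.37 and 0.41 (limma adjusted p = 0.00154 and 0.000579), although its dimmer probe, at 0.18 in both, was not called. MRPS30, also of the large subunit despite its symbol, read 2137.5, 1917.9 and 2043.0 in Dox, against 1750.3, 1718.9 and 1658.9 in Et. It read 2004.1, 1821.0 and 1703.4 in DHT_DOX, against 1483.0, 1482.6 and 1615.0 in DHT. Neither pair overlapped, and it rose by 0.25 and 0.27 (limma adjusted p = 0.0123 and 0.00706). These calls were lost without Dox replicate 1 (0.21, limma adjusted p = 0.0598) and without DHT_DOX replicate 1 (0.21, limma adjusted p = 0.0532).

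In the small subunit, MRPS17 rose most in Dox against Et. This protein binds ribosomal RNA early in assembly of the bacterial subunit. It read 2678.5, 2577.9 and 2882.5 in Dox, against 1858.4, 1902.0 and 1771.2 in Et. In DHT_DOX it read 2805.5, 2858.9 and 2898.8, against 2137.5, 2233.0 and 2028.8 in DHT. All arrays with dox lay above all those without, and the rises were 0.56 ± 0.07 and 0.42 ± 0.07 (limma adjusted p = 1.19e-06 and 4.01e-05). MRPS23, a mitochondria-specific protein, read 2698.9, 2430.9 and 2398.2 in Dox, against 2117.0, 1720.7 and 1769.3 in Et. It read 2386.2, 2327.0 and 2350.5 in DHT_DOX, against 1734.4, 2161.4 and 1490.0 in DHT. The DHT arrays spread widely but stayed below DHT_DOX, and it rose by 0.43 and 0.41 (limma adjusted p = 0.00255 and 0.00377).

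MRPS2, the homolog of a bacterial protein that binds late in assembly of the small subunit, read 1032.6, 1094.5 and 1141.3 in DHT_DOX, against 748.0, 700.8 and 973.4 in DHT. It read 923.6, 925.9 and 1008.4 in Dox, against 774.1, 786.8 and 756.4 in Et. No arrays overlapped within either pair. It rose by 0.45 (limma adjusted p = 0.000929) and 0.30 (limma adjusted p = 0.0184), and the Dox against Et call was lost without Et replicate 3 or Dox replicate 3 (limma adjusted p of 0.0539 and 0.0818).

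MRPS34, a mitochondria-specific protein of the small subunit, was high in one group alone on its arrays. It read 1155.3, 1146.7 and 1178.7 in DHT_DOX, 935.2, 959.3 and 847.3 in Dox, 858.0, 879.9 and 807.0 in DHT, and 871.9, 848.1 and 972.0 in Et. All DHT_DOX arrays lay above the other 9, which overlapped one another. It rose by 0.45 ± 0.08 in DHT_DOX against DHT (limma adjusted p = 7.93e-05) and by 0.35 ± 0.08 in DHT_DOX against Dox (limma adjusted p = 0.0115), and changed by 0.03 in Dox against Et. The interaction of 0.43 ± 0.11 did not pass the test over all genes (limma adjusted p = 0.115). Without Dox replicate 3 the DHT_DOX against Dox change was 0.29 (limma adjusted p = 0.0778).

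Falls were seen in MRPS28, MRPS33 and MRPS21. MRPS28, a small subunit protein, read 1224.1, 1069.2 and 978.9 in Dox, against 1436.3, 1455.0 and 1414.8 in Et. It read 1133.1, 1213.4 and 1259.3 in DHT_DOX, against 1403.1, 1523.9 and 1428.1 in DHT. All arrays with dox were below all those without. It fell by 0.40 in Dox against Et (SE 0.08, limma adjusted p = 0.000449) and by 0.27 in DHT_DOX against DHT (limma adjusted p = 0.011). The call in DHT_DOX against DHT was lost without DHT replicate 2 (limma adjusted p = 0.0518) or DHT_DOX replicate 1 (limma adjusted p = 0.0566).

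MRPS33, a mitochondria-specific protein, read 2832.5, 2463.2 and 3040.4 in DHT_DOX, against 3296.9, 3341.5 and 3078.2 in DHT, and fell by 0.23 (limma adjusted p = 0.0442). The highest DHT_DOX array lay just under the lowest DHT array. That call was lost in 5 of 12 fits with 1 array left out, namely Dox replicate 3, DHT replicate 1 or 2 and DHT_DOX replicate 1 or 2 (limma adjusted p of 0.0517 to 0.245), while its second probe fell by 0.40. In Dox against Et, MRPS33 changed by -0.03. MRPS21, a protein of the platform of the small subunit, read 12332.3, 12497.5 and 11077.3 in DHT_DOX, against 13006.0, 13709.1 and 14230.0 in DHT. It fell by 0.19 (limma adjusted p = 0.0189), but changed by 0.01 in Dox against Et, and its other probe gave 0.09. Its call was lost without DHT replicate 3 or DHT_DOX replicate 3 (limma adjusted p of 0.0873 and 0.118), and the mean of its probes gave -0.05.

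MRPS18A, MRPS18B and MRPS18C encode relatives of 1 bacterial protein. MRPS18C holds its place, while MRPS18A and MRPS18B hold other places and were counted as specific to mitochondria. MRPS18C read 7191.6, 7068.1 and 6679.4 in Dox, against 5713.0, 5368.0 and 5416.7 in Et, and rose by 0.34 (limma adjusted p = 0.000621). In DHT_DOX it read 6077.2, 6668.2 and 6603.9, against 6384.3, 5465.2 and 5337.2 in DHT, an overlapping pair with a change of 0.17 (limma adjusted p = 0.0621). MRPS18A, of the large subunit, read 585.2, 630.9 and 717.6 in DHT_DOX, 577.2, 589.6 and 630.1 in Dox, 679.1, 600.6 and 573.3 in DHT, and 455.1, 610.5 and 592.8 in Et, and it was called in 0 of these comparisons. By its tested probe MRPS18B, of the small subunit, was called in DHT against Et alone. Its dimmer probe rose by 0.33 in DHT_DOX against DHT (limma adjusted p = 0.0277) and changed by 0.20 in Dox against Et, not called. The tested probes of the 3 genes therefore did not share a pattern of calls, and whether their changes differ was not tested.

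**Figure D4:**
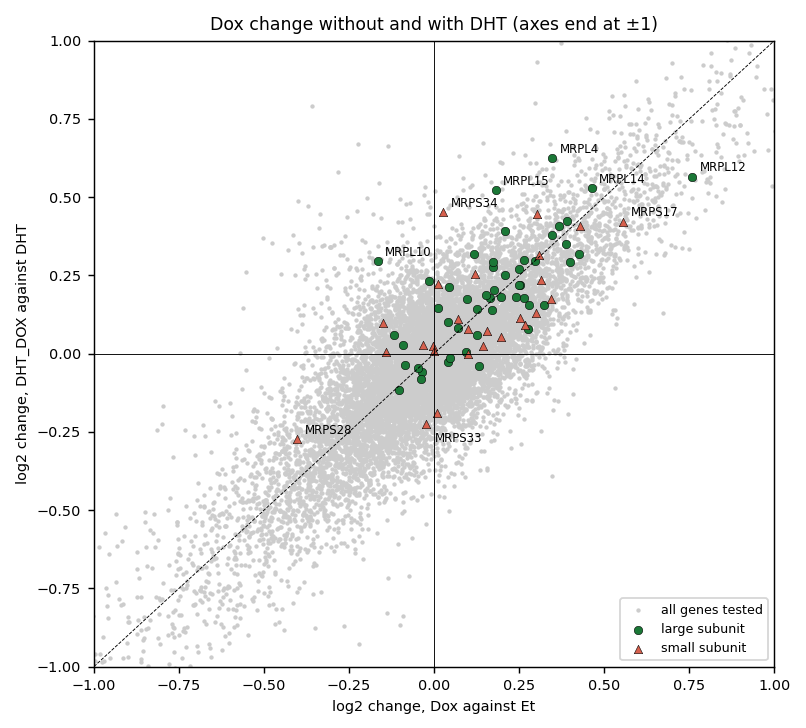
Log2 change in DHT_DOX against DHT (vertical axis) against that in Dox against Et (horizontal axis) for all genes tested (grey), large subunit genes (circles) and small subunit genes (triangles), with a dashed line of equal change and axes ending at 1. Most members lie in the upper right, and MRPS34 and MRPL15 lie above the line.

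In all, 19 members rose in both dox comparisons, against 10.0% of all genes. They made up 70.4% of the 27 and 63.3% of the 30, and over all genes tested these shares were 63.8% and 72.3%. The 19 were MRPL1, MRPL3, MRPL4, MRPL9, MRPL12, MRPL13, MRPL14, MRPL17, MRPL18, MRPL21, MRPL22, MRPL32, MRPL37, MRPL42, MRPS2, MRPS17, MRPS23, MRPS24 and MRPS30. Another 8 were called higher in Dox against Et and 11 in DHT_DOX against DHT alone, and 35 were called in neither direction in either. No member passed the interaction test, in which limma called 0.129% of all genes higher and 0.153% lower (0.282% in all). At an unadjusted p under 0.05, 5 of the 76 members were below the threshold, against 1235 of the 12405 genes tested. The median standard error of a member's interaction was 0.11. Of the 19, 11 kept both calls in every alternative setting, leaving out any 1 array included. A call in one setting alone is therefore not shown to be a difference between settings.

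DHT by itself moved few members. In DHT against Et, 1 member rose and 2 fell, against 4.37% and 3.01% of all genes (7.38% in either direction), and the median change was 0.01. All DHT arrays lay above all Et arrays in 6 members and below them in 7, against 13.6% and 11.2% of all genes. At an unadjusted p under 0.05, 5 of the 76 members were higher and 5 lower, against 1417 and 1168 of the 12405 genes tested. MRPL21, a large subunit protein with a bacterial homolog, read 3319.0, 2850.0 and 3229.7 in DHT, against 2677.4, 2697.9 and 2655.2 in Et, and rose by 0.22 (limma adjusted p = 0.0406). With dox it read 3744.1, 3929.9 and 3823.2 in DHT_DOX and 3613.0, 3493.3 and 3479.1 in Dox, and all DHT_DOX arrays lay above all Dox arrays, a difference of 0.12 that was not called (limma adjusted p = 0.349). It rose by 0.29 in DHT_DOX against DHT and by 0.40 in Dox against Et (limma adjusted p = 0.00143 and 6.47e-05). The DHT call was lost without any 1 Et array, Dox replicate 3, or DHT replicate 1 or 3 (limma adjusted p of 0.0519 to 0.174), and with the replicate number as a block (limma adjusted p = 0.0545).

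MRPS18B read 1565.5, 1769.3 and 1616.4 in DHT, against 2011.6, 2243.4 and 1900.0 in Et, and fell by 0.31 (limma adjusted p = 0.0258). It read 1756.2, 1633.7 and 1580.4 in DHT_DOX, against 2094.0, 1698.3 and 1798.2 in Dox, an overlapping pair with no call. MRPS31, a mitochondria-specific small subunit protein, read 820.0, 788.8 and 806.8 in DHT, against 1062.1, 898.6 and 1019.1 in Et, and fell by 0.30 (limma adjusted p = 0.0258). It read 857.2, 886.3 and 844.3 in DHT_DOX, against 892.8, 976.8 and 814.7 in Dox, again with no call. The MRPS18B call was lost without Et replicate 2, DHT replicate 1 or DHT replicate 3 (limma adjusted p of 0.0836 to 0.133), and with the mean of its probes (-0.14, limma adjusted p = 0.306). Its second probe changed by 0.03. The MRPS31 call was lost without Et replicate 1 or 3 or any 1 DHT array (limma adjusted p of 0.0626 to 0.106).

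In DHT_DOX against Dox, 2 members rose and 0 fell, against 1.94% and 2.14% of all genes called by limma (4.08% in either direction). At an unadjusted p under 0.05, 6 of the 76 members were higher and 2 lower, against 967 and 1341 of the 12405 genes tested. All DHT_DOX arrays lay above all Dox arrays in 9 members and below them in 6, against 9.45% and 13.4% of all genes. Beside MRPS34 the called member was MRPL55, a protein of the central protuberance. It read 893.0, 925.5 and 1001.7 in DHT_DOX, against 767.8, 722.8 and 768.4 in Dox, and rose by 0.32 (limma adjusted p = 0.0406). It read 930.8, 728.0 and 755.4 in DHT, against 753.6, 796.4 and 732.6 in Et, and these arrays overlapped. The DHT_DOX against Dox call was lost whichever Dox or DHT_DOX array was left out (limma adjusted p of 0.0601 to 0.16), with the mean of its probes (0.15, limma adjusted p = 0.227), and with the replicate number as a block (limma adjusted p = 0.055).

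**Figure D5:**
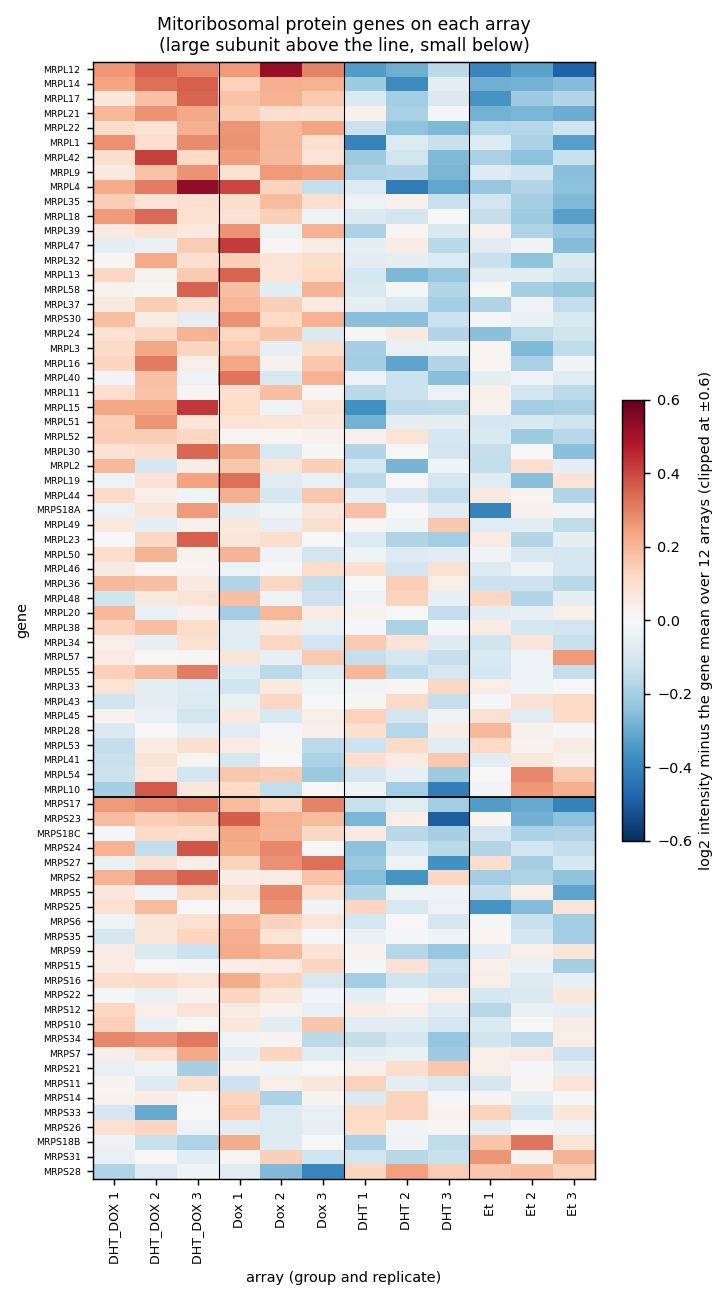
Log2 intensity of each member (lines of the map) minus its mean over 12 arrays, on each array by group and replicate, large subunit above the line and small subunit below. Within each subunit the genes are ordered by their change in Dox against Et, the largest rise at the top. By this order the Dox arrays are redder than the Et arrays at the top of each subunit. The DHT_DOX arrays are also redder than the DHT arrays for most of these genes, and the arrays with dox are bluer for MRPS28.

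Genes around the mitoribosome were set beside its proteins. As a background for each list, the shares of all genes called higher were 15.7% in Dox against Et and 13.8% in DHT_DOX against DHT, and those called lower 16.3% and 18.7%. Of 11 mitochondrial translation factor genes, 4 rose and 0 fell in Dox against Et, and 2 rose (18.2%, near the share of all genes) and 0 fell in DHT_DOX against DHT. The formyltransferase gene MTFMT rose by 0.42 in Dox against Et and the elongation factor gene GFM1 by 0.19 and 0.27. GUF1, an elongation factor gene, and MRRF, the ribosome recycling factor gene, rose by 0.31 and 0.25 in Dox against Et and were not called in DHT_DOX against DHT (0.10 and 0.12). Of 23 assembly genes, 7 rose and 2 fell in Dox against Et and 8 rose and 2 fell in DHT_DOX against DHT. C1QBP, a matrix protein needed for mitochondrial translation, changed by 0.77 and 0.55. The assembly factor genes RBFA (0.49 and 0.30) and MPV17L2 (0.41 and 0.47) rose too, and YBEY, an endoribonuclease gene, fell by 0.51 and by 0.24. NOA1, of the same list, was also lower, at a mean of 1628 in Dox against 1945 in Et and 1442 in DHT_DOX against 1805 in DHT. DAP3, CHCHD1 and GADD45GIP1, subunit proteins with unrelated symbols, were not called, with changes between -0.06 and 0.16.

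Of 15 genes for copying and transcribing mitochondrial DNA, 4 rose in Dox against Et and 3 in DHT_DOX against DHT. TFAM, which packages that DNA and starts its transcription, changed by 0.37 (limma adjusted p = 0.00153) and 0.21 (limma adjusted p = 0.0552). The helicase genes SUPV3L1 (0.38, then 0.19 without a call) and TWNK (0.36 and 0.33) and the RNA-processing gene ELAC2 (0.09 without a call, then 0.31) were the other leading ones. PTCD3, MTERF4 and MRM1 of these lists were not above background. The mitochondrially encoded genes were not analysed here. Cytosolic ribosomal protein genes gave 10 rises and 5 falls among 73 in Dox against Et and 10 rises and 1 fall in DHT_DOX against DHT, with medians of 0.00 and 0.04. The share that rose, 13.7% in both, was near that of all genes. Subunits of respiratory complex I gave 2 rises and 1 fall among 34 in Dox against Et, and 4 rises and 3 falls in DHT_DOX against DHT. Differences between these lists and the mitoribosomal genes were not tested.

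For 24 members with several probes above background, 0 had probes called in opposite directions in either dox comparison, though signs differed in 6 and 7. All such probes were called in 3 genes in Dox against Et and 4 in DHT_DOX against DHT, and some but not all in 9 and 10. MRPL20 shows the difference. Its brighter probe changed by 0.04 and 0.10, neither called, and its dimmer one, also bright, by 0.28 and 0.40, both called. The region of each transcript that a probe reads is not given in the sources used here.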

How the data were processed

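Total RNA was measured on 12 Illumina bead arrays in 4 groups of 3, which the design text calls biological triplicates. The authors deposited 1 linear intensity per probe and array. Per the submitters' processing notes GenomeStudio was used, and its version, normalization and background step were not given. The columns already shared their quantiles (largest difference 0.8), so no further normalization was applied. The table of probe genes gave 30113 probes 1 symbol, 8 several and 17109 none, and 30074 were named through their gene identifier in RefSeq (GRCh38.p14, names and promoters).

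Values were floored at 20 (0 lay below) and taken to log2. A limit of 145.8 marked background, the 95th percentile of 619 probes of olfactory receptor, keratin-associated, taste receptor and defensin genes. Background signal left in the intensities compresses the changes of dim probes. Each gene was read by its brightest probe above the limit in at least 1 group mean, which left 12405 genes. A model of 4 group means was fitted with limma 3.58.1 (lmFit, eBayes with trend) in R 4.3.3 and tested on simulated data. Two-sided p-values were adjusted by Benjamini-Hochberg over all genes, with a threshold of 0.05. The interaction is the dox change with DHT minus that without it. Plots came from matplotlib 3.10.9, and tables from pandas 2.3.3 with numpy 2.4.6 under Python 3.11.15. The number of arrays limits the precision. The members, gene lists and tests were chosen with earlier results of these data known. Array values are given for up to 8 members in each direction in the dox comparisons and 5 in the DHT comparisons, ranked by change among those called, and for MRPS18A, MRPS18B, MRPS18C, MRPS30 and MRPL42. Values of MRPL10, MRPL11, MRPL53, MRPL45 and MRPL20 were chosen after they were seen. MRPS36 is now KGD4, a ketoglutarate dehydrogenase gene, and is no member. Alternatives were the probe mean, dim probe filter, normalization, groups fitted, prior trend, replicate block and leaving out each array.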

Additional observations from a re-analysis of the deposited data

How the results depend on the processing

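Each result was recomputed in up to 21 other settings. Of the 27 rises in Dox against Et, 16 were called in every setting, as were 18 of the 30 in DHT_DOX against DHT. The 1 fall in Dox against Et (MRPS28) was called in every setting and 0 of the 3 falls in DHT_DOX against DHT were. None of the 25 changes picked by rank among those called reversed its sign in any setting. Other changes named here were not part of this check. The number of rises in Dox against Et lay between 25 and 29 over the other settings and between 19 and 29 with 1 array left out, the lowest without Dox replicate 1. In DHT_DOX against DHT it lay between 26 and 31, and between 23 and 31 with 1 array left out.

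The falls in DHT_DOX against DHT numbered 1 with no trend in the prior variance, and 1 to 3 with 1 array left out. In DHT against Et, the rises numbered 0 without the filter on dim probes, with only the groups compared, with no trend and with the replicate block, and 0 to 1 with 1 array left out; the falls numbered 1 with the mean of the probes, and 0 to 3 with 1 array left out. In DHT_DOX against Dox, the rises numbered 1 with the mean of the probes, without the filter, with no trend and with the replicate block, and 0 to 2 with 1 array left out. The cause was not tested.

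Residuals gave no sign that replicate numbers pair the arrays, though a weak pairing could be missed. Residuals of 18 same-numbered pairs correlated at -0.119 to 0.202 (mean -0.011), against -0.185 to 0.162 (mean 0.006) for the other 36. With the replicate number as a block, 25 members rose and 1 fell in Dox against Et, 28 rose and 3 fell in DHT_DOX against DHT, 0 rose and 2 fell in DHT against Et, and 1 rose and 0 fell in DHT_DOX against Dox.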

Other observations

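Other nuclear genes for mitochondrial proteins were read on the same arrays. Of 10 mitochondrial chaperone and protease genes, 4 rose and 0 fell in Dox against Et, and 5 rose and 0 fell in DHT_DOX against DHT. Of all genes, limma called 15.7% higher and 16.3% lower in Dox against Et, and 13.8% higher and 18.7% lower in DHT_DOX against DHT. TRAP1, a chaperone of the matrix, rose by 0.37 and 0.51 (limma adjusted p = 0.00435 and 0.000248). HSPD1, the matrix chaperonin, rose by 0.27 and 0.33 and its cochaperonin gene HSPE1 changed by 0.19 (not called) and 0.31 (limma adjusted p = 0.00626). LONP1, another matrix protease, changed by 0.10 (not called) and 0.34 (limma adjusted p = 0.00133).

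Of 7 tested regulators of mitochondrial biogenesis, 3 rose and 1 fell in Dox against Et, and 3 rose in DHT_DOX against DHT. MYC, a transcription factor that drives growth and ribosome production, read 1279.4, 1406.2 and 1324.0 in Dox, against 559.9, 482.0 and 492.5 in Et. It read 1577.2, 1565.5 and 1470.8 in DHT_DOX, against 681.0, 668.8 and 696.7 in DHT. It rose by 1.39 and 1.17 (limma adjusted p = 8.46e-12 and 9.64e-11). GABPB1, a subunit of the ETS-family factor GABP, rose by 0.88 and 0.78, and the coactivator gene PPRC1 by 0.53 and 0.42. GABPA, which encodes another GABP subunit, YY1 and NRF1 were not called in either comparison. Mean intensities of GABPA were 344.9 in Dox, 347.9 in Et, 286.4 in DHT_DOX and 330.4 in DHT. In the same order they were 5286, 5447, 4863 and 5472 for YY1 and 146.8, 134.8, 156.6 and 140.4 for NRF1. ESRRA, an orphan nuclear receptor gene, fell by 0.40 in Dox against Et and changed by -0.25 in DHT_DOX against DHT (limma adjusted p = 0.0511). The coactivator genes PPARGC1A and PPARGC1B were not above background. Whether these changes bear on the mitoribosomal genes was not tested.

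KGD4, once named MRPS36 and now assigned to the ketoglutarate dehydrogenase complex, changed by -0.15 and -0.17, neither called by limma.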
